A study of Mus musculus with 14 samples.

Results

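The cytosolic ribosomal protein genes encode the protein subunits of the ribosomes that work in the cytosol. They were chosen here by name: a probe set (a group of short array probes read out as 1 value) was kept when its only gene symbol was Rpl or Rps followed directly by a digit, or Rpsa, Rplp0, Rplp1 or Rplp2. Ribosomal protein S6 kinases, pseudogenes and mitochondrial ribosomal proteins were left out. This gave 100 probe sets of 48 genes among the 22690 probe sets of the array. Of these, 87 probe sets of 45 genes (21 of the small and 24 of the large subunit) were bright enough to be tested, among 13575 tested in all, and 13 probe sets fell below the filter on low signals. Rpl39l, Rpl3l and Rps4l had no probe set above that filter. Rplp1, Rps27a, Rpl3, Rpl36a, Rpl36al, Rpl5 and Rpl10 had no probe set listed under that symbol alone and are not described.

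Affymetrix arrays measured RNA of the thymus of female C57BL/6 mice, with 14 arrays in 7 groups of 2. All animals, controls included, were ovariectomized at an age of 26 days and then kept on AIN-93G, a diet free of plant estrogens, and treatment began at an age of 30 days. Estradiol, the main ovarian estrogen, was given as a daily injection of 125 ng under the skin in 0.02 ml of corn oil. Genistein, a plant estrogen from soy and a ligand of the estrogen receptors, was given at 1500 ppm in freely available food. Thymus was taken on days 2, 3 and 6 of either treatment, and the control group is untreated animals of day 0. Among the samples used here no group received corn oil alone and none was untreated on days 2, 3 or 6, so an effect of injection, of age or of time after ovariectomy cannot be told apart from that of treatment against the controls. Each group held 6 mice as 2 pools of 3, which the labels call independent biological replicates, and each array is 1 pool.

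Ribosomal proteins are made in near equal amounts and assembled with ribosomal RNA in the nucleolus into a small subunit, which reads the messenger RNA, and a large subunit, which joins amino acids. In mammals, their messenger RNAs typically begin with a C followed by a run of pyrimidines (C or T), the terminal oligopyrimidine motif, through which mTOR signalling controls their translation. The thymus holds mostly dividing and maturing T cells, small cells whose ribosome content rises when they proliferate, and the loss of some ribosomal proteins, Rpl22 among them, is known to disturb T cell development.

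The bases around the transcription start are printed for the genes on which the results turn, because the start motif is a known feature of this gene family that the choice by name did not use. The sequences come from RefSeq on the mouse build GRCm38.p6, in which 42 of the 48 genes had an entry. Each runs 5′ to 3′ on the gene's strand over 40 bases, 25 before the start and 15 from it. Capitals mark the run of a C and at least 4 further C or T where that C lies within 5 bases of the start.
Rps6, chr4:86857353-86857392, minus strand: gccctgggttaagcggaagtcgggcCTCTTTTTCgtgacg
Rpl7a, chr2:26910782-26910821, plus strand: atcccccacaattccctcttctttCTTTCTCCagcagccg
Rpl35, chr2:39005117-39005156, minus strand: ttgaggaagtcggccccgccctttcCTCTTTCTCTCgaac
Rplp2, chr7:141447626-141447665, plus strand: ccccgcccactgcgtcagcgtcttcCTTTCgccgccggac
Rps27, chr3:90213634-90213673, minus strand: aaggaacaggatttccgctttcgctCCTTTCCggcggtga
Rps27l, chr9:66946061-66946100, plus strand: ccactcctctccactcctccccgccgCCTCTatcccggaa
Rpl22l1, chr3:28805483-28805522, plus strand: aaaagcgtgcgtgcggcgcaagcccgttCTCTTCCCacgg
Rpl22, chr4:152324411-152324450, plus strand: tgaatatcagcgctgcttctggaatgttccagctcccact
Rpl7l1, chr17:46782642-46782681, minus strand: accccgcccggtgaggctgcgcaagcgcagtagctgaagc
Rpsa, chr9:120127741-120127780, plus strand: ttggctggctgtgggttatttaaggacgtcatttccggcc
Rplp0, chr5:115559442-115559481, plus strand: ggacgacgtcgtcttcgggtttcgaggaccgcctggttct
In the first 7 of these the run was present, with 9 bases in Rps6, 8 in Rpl7a, 11 in Rpl35, 5 in Rplp2, 7 in Rps27, 5 in Rps27l and 8 in Rpl22l1. In the last 4 no such run lay within 5 bases of the annotated start, which describes only these letters at that position. RefSeq lists 2 starts for Rpl22 and for Rps27l, of which 1 is shown.

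Such a run was found in 20 of the 42 ribosomal protein genes (47.6%), against 5718 of all 27025 genes with an entry (21.2%). Genes of translation factors held it in 8 of 36 cases (22.2%) and ribosome assembly factors in 8 of 41 (19.5%). With the C exactly at the start, the run was held by 8 of the 42 ribosomal protein genes and by 3.01% of all genes. In the 300 bases from 250 before the start to 50 after it, CCGGAAG, a core bound by ETS-family factors, was present on either strand in 21 of the 42 genes and in 9.93% of all genes. It was also frequent among translation factors (33.3%) and assembly factors (39.0%). AAGATGG, a YY1-type core that can share its first 3 bases with the end of CCGGAAG, was present on either strand in 16.7% against 7.28%. TATAAA, searched on the gene's strand in the stretch from 40 to 15 bases before the start, was present in 1 gene, Rpl22l1, which is 2.38% against 2.41% of all genes. By these counts, given without a test, the start run and the CCGGAAG letters were more frequent in ribosomal protein genes than in all genes.

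Before any comparison, every array was multiplied to 1 common mean, taken after leaving out the lowest and highest 2% of probe sets, because 3 arrays had been deposited at another scale (1.49 times the common mean for estradiol day 2 replicate 2, 2 and 2.23 times for the estradiol day 3 arrays). Values below are these rescaled signals, and changes are differences of log2(signal + 16), which understates the change of dim probe sets. The defining transcripts of thymocytes were bright on every array, with Rag1 between 1917 and 2962, Cd8b1 between 1668 and 2372 and Dntt between 2498 and 3781. Replicate arrays correlated between 0.9551 and 0.9855 over all probe sets and none was a copy of another. The ratio of 3′ to 5′ Gapdh signal, a sign of RNA quality, was highest on genistein day 6 replicate 1, at 1.5, followed by estradiol day 2 replicate 1, at 1.27, while the other 12 arrays gave 0.867 to 1.1. In whole thymus, fewer cells with a transcript and less of it per cell cannot be told apart.

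Ribosomal protein probe sets were among the brightest of the array. Of the 87 tested, 55 had a mean log2 above 11 (a signal of 2032), a level reached by 226 of all 13575 tested probe sets. Brightness also reflects how well a probe set binds, so it was not used to order the genes by amount of RNA. By mean log2 signal over the 14 arrays, the brightest genes were Rpl41, the shortest ribosomal protein (mean log2 12.34, median signal 5117), the small subunit gene Rps29 (12.12, 4187), Rplp2 of the ribosomal stalk (12.07, 4211), and the small subunit genes Rps28 (12.03, 4225) and Rpsa (median signal 3932), with Rpl7a equal to Rpsa in mean log2 after rounding. The dimmest tested genes were Rpl14 (63.2), Rpl27a (82.75), Rps27 (98.7), Rpl12 (147.3) and Rpl39 (178.3). The highest of the 14 arrays exceeded the lowest by between 1.27 times, for Rpl7, and 3.19 times, for Rpl39. Between replicate arrays the median SD was 0.147 log2 units for the ribosomal protein genes and 0.192 for all tested probe sets.

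The bright ribosomal protein genes, 33 of the 45, set a common profile from array to array. Taking for each array the median deviation of the 45 genes from their own means, the controls stood at -0.08 and -0.07 log2 units. The estradiol arrays stood at 0.22 and -0.05 on day 2, -0.09 and -0.14 on day 3 and -0.19 and -0.24 on day 6. The genistein arrays stood at 0.12 and 0.03 on day 2, 0.06 and 0.20 on day 3 and 0.11 and 0.04 on day 6. All 6 genistein arrays thus lay above both controls and above the day 3 and day 6 estradiol arrays, and the 2 estradiol arrays of day 2 had the widest spread of any group (SD 0.188). Small and large subunit genes gave nearly the same profile, with -0.17 and -0.25 for the small and -0.21 and -0.22 for the large subunit on the estradiol day 6 arrays. On genistein day 3 replicate 2, the small subunit genes stood at 0.18 and the large subunit genes at 0.22. The 12 genes below log2 11 did not follow it throughout: their median was 0.27 on control replicate 2, where that of the 33 bright genes was -0.07, and -0.05 and -0.04 on the genistein day 2 arrays, where the bright genes stood at 0.16 and 0.05. The ribosomal protein probe sets held between 3.94% of an array's summed signal, on estradiol day 6 replicate 2, and 5.18%, on estradiol day 2 replicate 1.

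The same shift was present in other bright probe sets. A comparison chosen after the values were seen took the 112 probe sets above log2 11 that list no ribosomal protein symbol of the naming rule. They still hold Fau, whose product includes Rps30, and translation genes such as Eef1a1, Tpt1 and Eef2. Their medians were -0.07 and -0.11 on the controls and -0.18 and -0.21 on the estradiol day 6 arrays. On the genistein arrays they lay between 0.06 and 0.17, and on estradiol day 2 replicate 1 at 0.18. The median over all tested probe sets stayed between -0.02 and 0.03. With quantile normalization, which gives every array the same distribution of signals, the medians of the ribosomal protein genes lay between -0.04 and 0.05 and those of the 112 other probe sets between -0.04 and 0.03. Among the 226 tested probe sets above log2 11, 55 are members and 59 list a ribosomal protein among several symbols. Quantile normalization equalizes this top range, so the small medians there were partly set by the method. They cannot show how far the shift is particular to these genes. With the common trimmed mean, the shift was shared with other transcripts of like brightness, and it depended on the scaling. Its source was not tested.

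**Figure D1:**
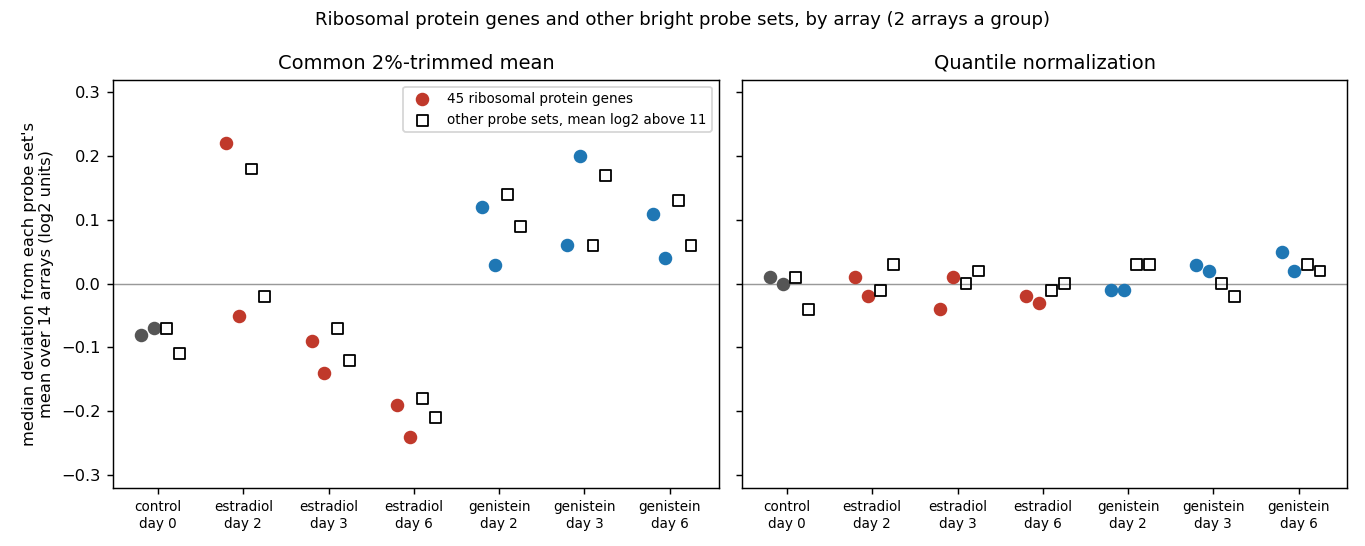
Median deviation (log2 units) of the 45 ribosomal protein genes (filled points) and of 112 other bright probe sets (open squares) on each of the 14 arrays, 2 per group, after scaling to a common trimmed mean (left) and after quantile normalization (right). On the left the members range from -0.24 on estradiol day 6 replicate 2 to 0.22 on estradiol day 2 replicate 1, whose replicate 2 is at -0.05. The other bright probe sets lie beside them, and on the right both sets stay within 0.05 of zero.

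The direct comparison of estradiol with genistein, which does not use the controls, asks whether the injected hormone and the dietary phytoestrogen left the same ribosomal protein transcript levels. Only the estradiol groups were injected, in corn oil, so injection and route cannot be told apart from the compound here either. Averaged over the 3 days, 43 of the 45 genes were lower with estradiol, with a median of -0.19 log2 units and a range of -0.48 to 0.01, against a median of 0 over all tested probe sets. In limma with Benjamini-Hochberg adjustment over all 13575 probe sets, Rps6 and Rpl7a were lower at an adjusted p under 0.05 and no member was higher. That is 2 of 87 probe sets, where 0.295% of all tested probe sets were called lower and 1.41% were called in either direction. Leaving out single arrays changed the calls. Both were lost without any single one of estradiol day 2 replicate 2, either array of estradiol days 3 and 6, genistein day 2 replicate 1 or genistein day 3 replicate 2. More members passed without estradiol day 2 replicate 1, in a fit for which the share of all probe sets is not given here. At an unadjusted p under 0.05, 39 member probe sets were lower and 2 higher, where 7.8% and 9.31% of all were. No member probe set had all 6 estradiol arrays on 1 side of all 6 genistein arrays, where 0.413% of all were lower and 0.965% higher without overlap.

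The lower values with estradiol were found in bright and dim genes and on days 3 and 6. All 33 genes above log2 11 were lower (median -0.20), while the 12 genes below it had a median of -0.08, with 10 lower. The 112 other bright probe sets had a median of -0.19, with 97 lower and 10 of them called lower. After quantile normalization the median was -0.03 for the 45 genes, with 30 lower and 15 higher, and -0.01 for the 112 others. The median difference of the 45 genes was -0.01 on day 2, -0.25 on day 3 and -0.30 on day 6. The small subunit genes were lower in 20 of 21 cases (median -0.17) and the large subunit genes in 23 of 24 (median -0.22), so neither subunit stood apart in direction. A further 95 tested probe sets that list several symbols, a ribosomal protein among them, had a median of -0.16, with 83 lower and 1 called lower.

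**Figure D2:**
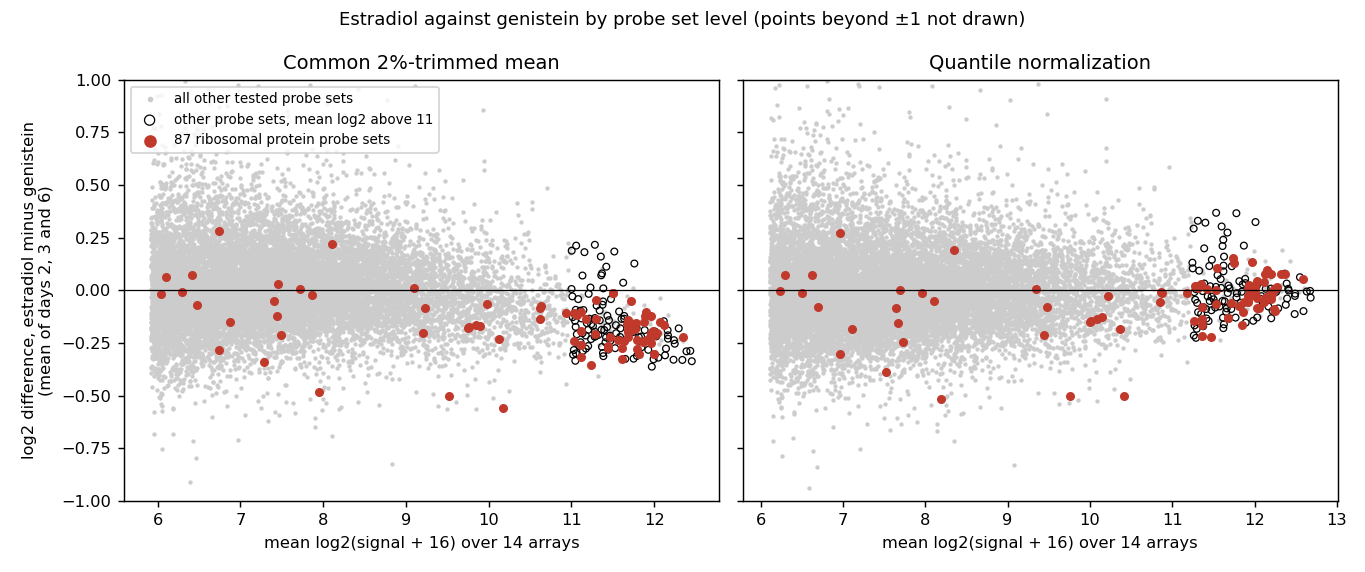
Difference between estradiol and genistein (log2 units, mean of days 2, 3 and 6) against mean log2 signal over 14 arrays, 1 point per tested probe set, after scaling to a common trimmed mean (left) and after quantile normalization (right); red points are the 87 ribosomal protein probe sets and open circles are other probe sets above log2 11. On the left the bright members lie around -0.20 with the other bright probe sets, and on the right both centre near zero.

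Rps6, the small subunit protein that S6 kinases phosphorylate downstream of mTOR, gave the largest difference between the treatments. Its tested probe set read 169.9 and 191.5 on the controls. On the estradiol arrays it read 297.3 and 226.7 on day 2, 185.6 and 178.1 on day 3, and 173.3 and 169.7 on day 6. The genistein arrays read 285.7 and 293.6 on day 2, 233.3 and 311.2 on day 3, and 346.8 and 267.1 on day 6. All 6 genistein arrays were above both controls, the estradiol arrays of days 3 and 6 lay at the level of the controls, and the treatments overlapped only through estradiol day 2. The difference was -0.48 log2 units (SE 0.104, 0.715-fold, adjusted p = 0.0394 in limma), with -0.15 on day 2, -0.53 on day 3 and -0.77 on day 6 (adjusted p = 0.115 for day 6). This probe set had a mean log2 of 7.95, below the level of the bright genes, and quantile normalization gave -0.52 (adjusted p = 0.0372). Whether it takes part in the shared shift was not tested. Over 29 alternatives the call was kept in 12. Among others, it was lost without the 3 arrays deposited at another scale (-0.37, over days 2 and 6 only), with the Gapdh ratio as a covariate (adjusted p = 0.076) and without any of 9 single arrays. These were both arrays of estradiol day 3, estradiol day 6 and genistein day 2, estradiol day 2 replicate 2, genistein day 3 replicate 2 and genistein day 6 replicate 1 (adjusted p between 0.0703 and 0.135).

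Rpl7a, a large subunit protein, was the other gene called. It read 3785 and 4029 on the controls. The estradiol arrays gave 4853 and 4004 on day 2, 3509 and 3396 on day 3, and 3267 and 3351 on day 6. The genistein arrays gave 4691 and 4064 on day 2, 4458 and 4677 on day 3, and 4959 and 4534 on day 6. The 4 estradiol arrays of days 3 and 6 were below every control and genistein array, and the first of day 2 lay among the genistein values. The difference was -0.30 log2 units (SE 0.0668, 0.811-fold, adjusted p = 0.0446 in limma), with 0.01, -0.40 and -0.52 on days 2, 3 and 6. With quantile normalization it was -0.10 (adjusted p = 0.317). Without any of 11 of the 14 arrays the call was also lost (adjusted p between 0.0522 and 0.145), and it was kept only without estradiol day 2 replicate 1, genistein day 2 replicate 2 or genistein day 6 replicate 2.

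Rpl35 and Rpsa, with differences at least as large as that of Rpl7a, were bright and did not pass the threshold. Rpl35 of the large subunit gave -0.33 (SE 0.0811, adjusted p = 0.0657), and -0.17 with quantile normalization. Rpsa, the small subunit protein also known as the laminin receptor, gave -0.30 (SE 0.088, adjusted p = 0.102), and -0.09 with quantile normalization. Its controls read 3953 and 3566, the estradiol arrays 4940 and 3841, 3421 and 3560, and 3417 and 3371 on days 2, 3 and 6, and the genistein arrays 5026 and 4355, 4531 and 4456, and 5434 and 3911. The Rpsa signals on estradiol days 3 and 6 were below all other arrays, as for Rpl7a. The least negative differences were 0.01 for Rpl37 and Rps25 and -0.01 for Rpl14. On day 6 the most negative values were those of Rpl39 (-0.83, adjusted p = 0.214), Rps6 and Rpl7a (-0.52, adjusted p = 0.0972). Rpl39 was dim, with 68.8 and 149.8 on the estradiol and 173.7 and 219.8 on the genistein arrays of that day.

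**Figure D3:**
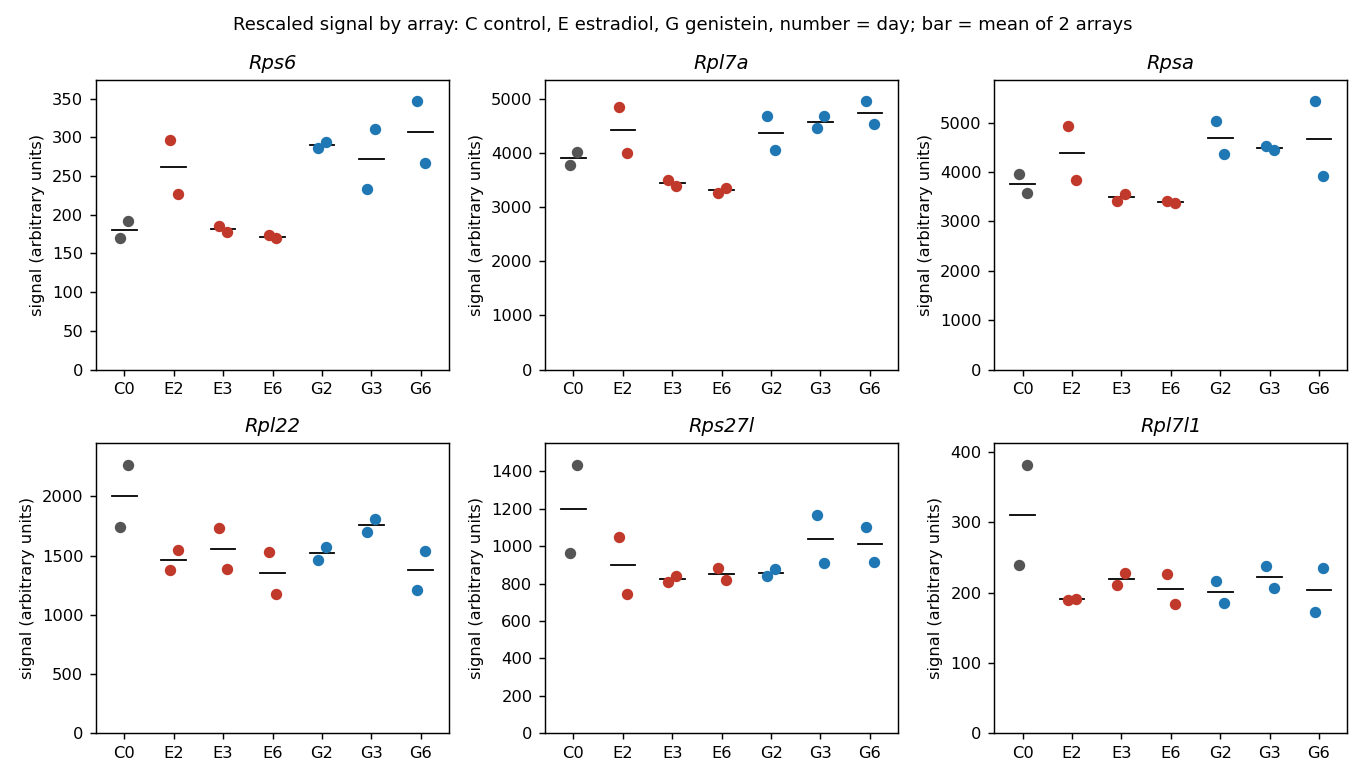
Rescaled signal on each of the 14 arrays, 2 per group, for 6 ribosomal protein genes, 1 panel per gene. Rps6 is at least 233.3 on all genistein arrays and at most 185.6 on the estradiol arrays of days 3 and 6, Rpl7a and Rpsa are lowest on estradiol days 3 and 6, and in Rpl22, Rps27l and Rpl7l1 the second control array is the highest of all.

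On day 2 the direction depended on the estradiol pool: the median was -0.12 without estradiol replicate 1 and 0.14 without replicate 2, and 0.02 and -0.05 without genistein replicates 1 and 2. With all arrays, 21 of the 45 genes were higher and 24 lower with estradiol, and 0 of 87 probe sets were called, where 0.081% of all were called. At an unadjusted p under 0.05, 1 member passed, against 6.72% of all. The extremes were -0.56 for Rps27, with readings of 80 and 91.61 against 137.6 and 130.6, and 0.21 for Rps7 and Rps25. On day 3, 42 genes were lower, 0 of 87 probe sets were called (0.0147% of all) and 34 were lower at an unadjusted p, against 3.06% of all. The 2 estradiol arrays were below both genistein arrays in 63 of the 87 probe sets, against 20.1% of all tested, and above them in 3, against 22.8%. Rps6 (-0.53), Rpl27a (-0.53) and Rps19 (-0.42), a gene mutated in Diamond-Blackfan anaemia, were the most negative on day 3 and Rps27 (0.13) the most positive.

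On day 6, 42 of the 45 genes were again lower with estradiol, 0 of 87 probe sets were called (0.265% of all) and 36 were lower at an unadjusted p under 0.05, against 6.51% of all. The estradiol arrays were below both genistein arrays in 62 probe sets, against 25.4% of all, and above them in 5, against 24.9%. Positive values were at most 0.16, for Rpl37, followed by Rpl14 (0.13) and Rpl7l1 (0.02). Quantile normalization gave medians of -0.03 on day 3, with 31 genes lower, and -0.04 on day 6, with 26 lower. The day 3 median was -0.01 where the other scale of 3 arrays, which include both of estradiol day 3, was fitted as a term. Only estradiol day 2 holds both scales, so that term rests on the difference between its 2 arrays. The day 6 median was -0.20 with the Gapdh ratio as a covariate.

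The comparisons of each treatment with the untreated controls share the 2 control arrays, so their values for a gene are not independent of each other. With estradiol, averaged over days, 27 of the 45 genes were lower and 18 higher, with a median of -0.02 against 0 over all tested probe sets. Without the 3 arrays deposited at another scale, which leaves out estradiol day 3, the median was 0.07, with 34 of 45 higher. With that scale as a term, which the 2 estradiol day 2 arrays alone set, the median was 0.11, with 36 higher. The median was 0.03 without estradiol day 2 replicate 2 and -0.06 without replicate 1. In limma 0 of 87 probe sets were called, where 0.604% of all were, and 9 passed at an unadjusted p under 0.05, all of them lower, where 14.8% of all passed and 5.79% were lower. The extremes were Rpl7l1 (-0.53), Rps27l (-0.46) and Rpl22 (-0.45) on the low side and Rps15 (0.16), Rpl7 (0.15) and Rps6 (0.14) on the high side. The days differed in sign, with a median of 0.15 on day 2, -0.05 on day 3 and -0.14 on day 6.

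On estradiol day 2, 35 of the 45 genes were above the controls, led by Rps6 (0.49), Rps29 (0.34) and Rpl41 (0.33), and 0 of 87 probe sets were called (0.0884% of all). Of the 87, 10 were higher and 4 lower at an unadjusted p under 0.05, where 7.26% and 5.02% of all were. Both day 2 arrays were above both controls in 20 probe sets, against 20.8% of all, and below them in 7, against 17%. The day 2 median was 0.04 without replicate 1, the array with the Gapdh ratio of 1.27, and 0.29 without replicate 2. Quantile normalization gave -0.02, with 18 of the 45 genes higher. On day 3, 32 genes were lower and 0 of 87 probe sets were called (0.0663% of all), with 8 lower at an unadjusted p, where 3.97% of all were. With the other scale, which both day 3 arrays share, as a term, the day 3 median turned from -0.05 to 0.20, with 39 of 45 higher. That term is set by the 2 arrays of estradiol day 2 alone, so it cannot tell scale from pool on day 3. Rps27 (0.31), Rpl7 (0.21) and Rps15 (0.15) were the highest values of that day. The Rps27 value was -0.24 without replicate 2, which read 178.2, while replicate 1 read 74.64, below the controls at 84.4 and 98.3.

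On estradiol day 6, 42 of the 45 genes were below the controls, and 0 of 87 probe sets were called (0.656% of all), with 11 lower at an unadjusted p, where 5.89% of all were. Both arrays were below both controls in 52 probe sets, against 24.6% of all, and above them in 4, against 24.9%. The most negative were Rpl39 (-0.69), Rpl22 (-0.56, adjusted p = 0.158) and Rpl7l1 (-0.53), and the only values above 0.01 were Rps15 (0.13) and Rps27 (0.02). Quantile normalization left a median of -0.05, with 32 genes lower. On day 3, for comparison, 38 probe sets were below both controls without overlap, against 22.5% of all.

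With genistein, 35 of the 45 genes were above the controls on average, with a median of 0.20 and a range of -0.51 to 0.63, against a median of 0 over all tested probe sets. In limma 0 of 87 probe sets were called, where 0.0368% of all were. At an unadjusted p under 0.05, 16 were higher and 2 lower, where 6.19% and 4.91% of all were. All 6 genistein arrays were above both controls in 23 probe sets, against 4.49% of all, and below them in 1, against 4.19%. Rps6 (0.63, SE 0.147, adjusted p = 0.237), Rpl27a (0.36) and Rpl41 (0.32) were the highest, and Rpl7l1 (-0.51), Rpl22 (-0.37) and Rps27l (-0.29) the lowest. Rps6 and Rpl27a are dim, and most of the other dim genes were not positive: 32 of 33 genes above log2 11 were positive, with a median of 0.21, and 9 of 12 below it were negative, with a median of -0.07. The 112 other bright probe sets had a median of 0.20, with 106 positive, and quantile normalization gave -0.01 for the 45 genes, with 21 positive and 24 negative.

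The genistein days were alike. The median against the controls was 0.16 on day 2, 0.20 on day 3 and 0.16 on day 6, with 36, 37 and 37 of the 45 genes higher. On these days 0 of 87 probe sets were called, where 0.0147%, 0.00737% and 0.00737% of all were. At an unadjusted p under 0.05, 12, 14 and 14 passed, where 11.8%, 5.73% and 10.4% of all did. Rps6 gave 0.64, 0.54 and 0.71 on the 3 days. Other high values were Rps27 on day 2 (0.49), Rpl27a on days 2 and 3 (0.37 and 0.56), Rps15 on day 3 (0.41) and Rpl8 on day 6 (0.34). On day 6 Rpl37 (-0.26) followed Rpl7l1 (-0.55) and Rpl22 (-0.54) on the low side.

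Differences among the days of a treatment did not pass the threshold for any ribosomal protein probe set. In the moderated F test over the estradiol days, 0 of 87 were called (0.0221% of all) and 19 had an unadjusted p under 0.05, against 6.92% of all. Over the genistein days 0 were called (0% of all) and 3 had an unadjusted p under 0.05, against 5.79%. In the test of whether the difference between treatments changed with the day, 0 were called (0% of all) and 14 had an unadjusted p under 0.05, against 4.24%. Rps4x, an X-linked small subunit gene, had the lowest unadjusted p of the 45 genes over the estradiol days (0.00254). Its signals were 4668 and 3838 on day 2, 3462 and 3301 on day 3 and 3140 and 3046 on day 6. Its controls were 3532 and 3550, and the genistein arrays lay between 4053 and 4340, above every array but the first of estradiol day 2.

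**Figure D4:**
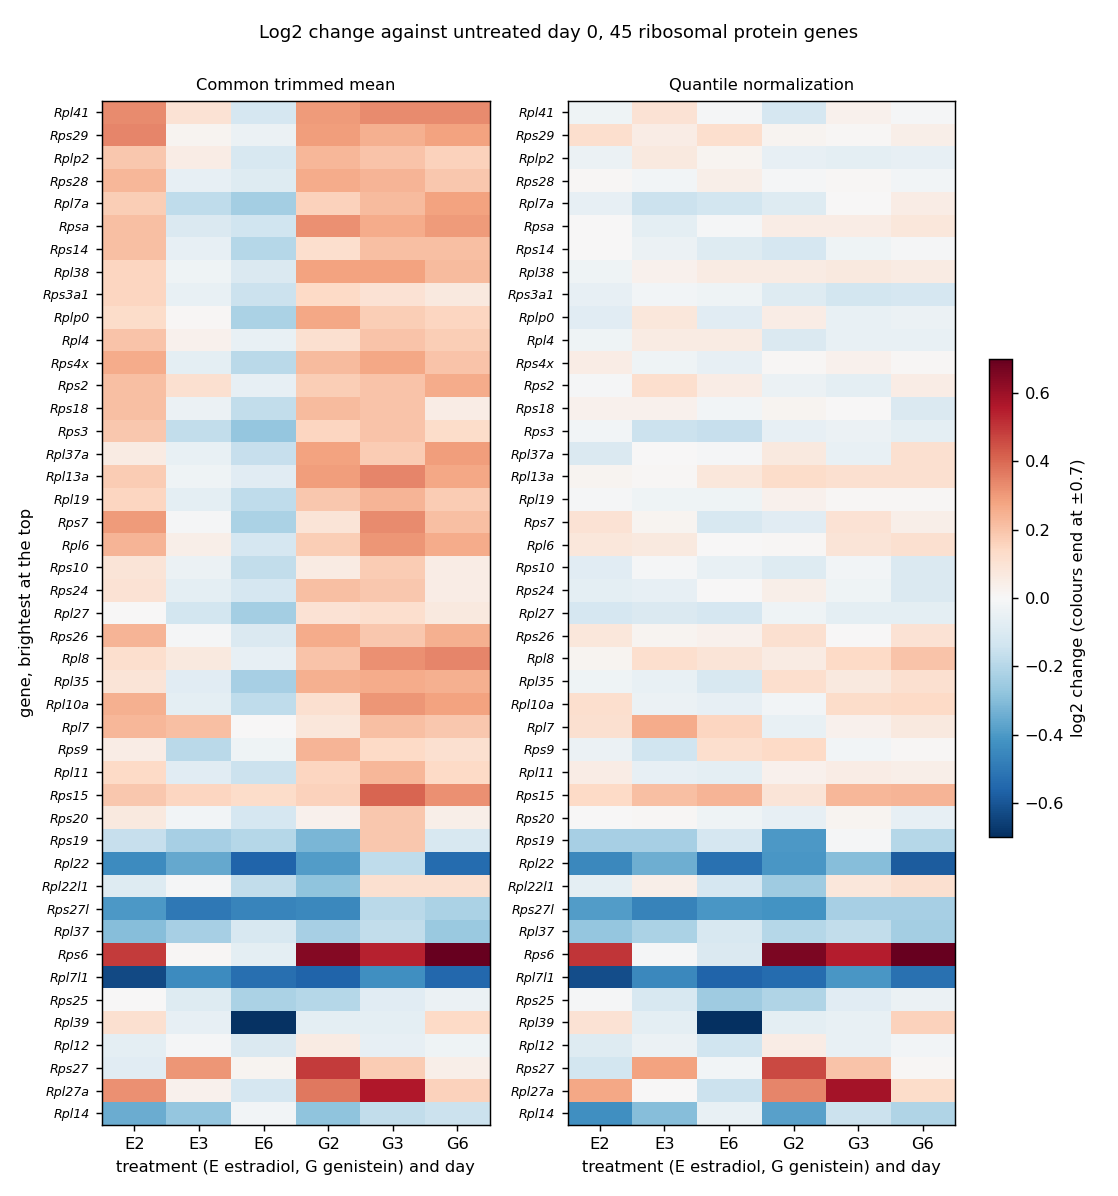
Difference from the controls (log2 units, colours end at 0.7 either way) of the 45 ribosomal protein genes, brightest at the top, for estradiol and genistein on days 2, 3 and 6, after scaling to a common trimmed mean and after quantile normalization. The bright genes change in unison by group in the first scaling, with a median of -0.14 on estradiol day 6 and 0.20 on genistein day 3, while Rps6, Rpl22, Rps27l and Rpl7l1 have similar values in both.

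The stalk proteins of the large subunit, which recruit elongation factors, followed the bright genes. Rplp0 read 4191 and 3368 on the controls, 4479 and 3774, 3970 and 3600, and 3421 and 3026 on estradiol days 2, 3 and 6, and 5292 and 3904, 3858 and 4611, and 4399 and 3943 on the genistein days. Estradiol day 6 replicate 2 was the lowest array, and the 2 controls lay further apart than the arrays of every other group but genistein day 2. Its differences were -0.03 for estradiol and 0.20 for genistein against the controls and -0.22 between the treatments (adjusted p = 0.234), and -0.01 between the treatments after quantile normalization. Rplp2 gave 0.04, 0.20 and -0.15 (adjusted p = 0.27), and 0.08 between the treatments after quantile normalization, so its direction turned with the scaling.

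Rps3, Rps19 and Rps15 of the small subunit did not pass the threshold in any comparison. Rps3, which also takes part in DNA repair, gave -0.08 for estradiol and 0.16 for genistein against the controls, and -0.25 between them (adjusted p = 0.166). Rps19 gave -0.20 and -0.08 against the controls and -0.12 between the treatments. Rps15, which sits in the head of the small subunit, was the highest with estradiol, with readings of 1996 and 2016 on the controls, 2480 and 2125, 2160 and 2297, and 2045 and 2368 on the estradiol days. All 6 estradiol arrays were above both controls. The difference was 0.16 (adjusted p = 0.526), its genistein value was 0.30, and quantile normalization kept both at 0.20 and 0.19. Its second probe set read 2105 and 2001 on the controls and from 1810 to 2471 on the estradiol arrays, which overlapped them.

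Among the large subunit proteins, Rpl11, which binds Mdm2 and thereby restrains p53 breakdown when ribosome assembly fails, gave -0.03 and 0.18 against the controls and -0.21 between the treatments (adjusted p = 0.115). Rpl13a, also used as a reference gene in expression studies, gave 0.02 and 0.30 against the controls and -0.28 between the treatments (adjusted p = 0.0772). Its signals were 3022 and 3392 on the controls, 2964 to 3966 on the estradiol arrays and 3687 to 4438 on the genistein arrays. The genistein readings were all above the controls and overlapped those of estradiol through day 2 only. With quantile normalization the Rpl13a difference between treatments was -0.08. Rpl41 gave 0.10 and 0.32 against the controls and -0.22 between the treatments, and 0.02, -0.03 and 0.05 after quantile normalization.

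Several ribosomal proteins have paralogs, gene copies whose products can take their place. Rpl22, Rpl7l1 and Rps27l, each of such a pair, had the lowest averages against the controls, which both treatments share. Rpl22, required for the development of alpha-beta T cells, read 1740 and 2269 on the controls. The estradiol arrays gave 1375 and 1546, 1729 and 1388, and 1533 and 1173 on days 2, 3 and 6, and the genistein arrays 1464 and 1571, 1698 and 1812, and 1212 and 1536. All 12 treated arrays were below the second control, and all but 1, genistein day 3 replicate 2, were below the first. The differences were -0.45 (SE 0.142, adjusted p = 0.159) for estradiol and -0.37 (SE 0.142, adjusted p = 0.384) for genistein, and -0.44 and -0.43 after quantile normalization. Its second, dimmer probe set did not share the fall with estradiol, where it changed by 0.14. That probe set read 225.7 and 286.7 on the controls and 238.5 to 313.5 on the estradiol arrays. On the genistein arrays it read 215.1 to 264.5, all below the second control and on both sides of the first. Rpl22l1, the paralog of Rpl22, gave -0.09 and -0.02 against the controls.

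Rpl7l1, a paralog of Rpl7, read 239 and 382.5 on the controls, 189.5 and 191.3, 211.1 and 227.3, and 226.8 and 183.7 on the estradiol days, and 216.5 and 185.4, 237.3 and 206.5, and 172.6 and 235.5 on the genistein days. All 12 treated arrays were below both controls, and the 2 controls lay further apart than any treated pair. The differences were -0.53 (SE 0.171, adjusted p = 0.17) for estradiol and -0.51 (adjusted p = 0.348) for genistein, and its second probe set gave -0.35 for estradiol. Rpl7 itself, with -0.01 between the treatments, gave 0.15 and 0.16 against the controls. Rps27l, a p53-responsive paralog of Rps27, read 961.8 and 1437 on the controls and 744.7 to 1049 on the estradiol arrays. Its second control stood above every other array and its first among the treated ones. The differences were -0.46 (SE 0.163, adjusted p = 0.209) for estradiol and -0.29 (adjusted p = 0.523) for genistein, and its 3 probe sets lay between -0.46 and -0.27 for estradiol.

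The second control array was the highest of all 14 for Rpl22, Rps27l and Rpl7l1. Without the first control, the estradiol differences were -0.64 for Rpl22 (adjusted p = 0.0615), -0.74 for Rps27l (adjusted p = 0.0455) and -0.86 for Rpl7l1 (adjusted p = 0.0266), and the genistein difference of Rpl7l1 was -0.83 (adjusted p = 0.0365). Without the second control, the estradiol differences were -0.26, -0.17 and -0.21 in the same order. These 3 estradiol differences thus kept their direction, and their size depended on which control pool was used.

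The other paralog pairs were read by dim probe sets. Rps27 gave 0.08 and 0.23 against the controls, with signals between 64.9 and 178.2. Rpl39 gave -0.21 and 0 against the controls. Rpl39l, a paralog with its main expression in testis, read between 1.255 and 37.3, and Rpl3l, a paralog of striated muscle, between 1.1 and 21.1, and neither was tested. Rps4l, a paralog of Rps4x, was also below the filter and was picked out after its values were seen. It read 13.5 and 21.3 on the controls, 64.1 and 9.738, 42.32 and 61.74, and 77.7 and 61.2 on estradiol days 2, 3 and 6, and 9 and 12.1, 30.7 and 11.6, and 10.8 and 12.4 on the genistein days. Its signal was above all controls and genistein arrays on 5 of the 6 estradiol arrays. In a fit without the filter the difference between treatments was 1.1 log2 units (SE 0.244, adjusted p = 0.0752), which missed the threshold. Of the other 12 untested probe sets, the lowest unadjusted p in that comparison was 0.147.

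Probe sets of the same gene did not always move alike. Of the 45 genes, 19 had more than 1 tested probe set, 61 in all and up to 6 for a gene, and for estradiol against the controls all of a gene's probe sets had the same sign in 11 of the 19. Between the treatments this was so in 14 of the 19. The widest spread was in Rps10, whose 6 probe sets ranged from -1.48 to -0.04. Its most negative probe set read 891.9 on the first and 2533 on the second control array, so the 2 controls disagreed there. Rpl22 ranged from -0.45 to 0.14, Rpl13a from -0.41 to 0.07, Rpl37a from -0.52 to -0.05 and Rps9 from -0.31 to 0.12. Of the 87 tested probe sets, 38 carry the array's mark for probes that can bind unrelated transcripts and 2 the mark for probes shared by similar ones. Ribosomal protein genes have many near-identical processed pseudogenes, and signals of the genes and of such copies cannot be told apart at these probe sets. Without the marked probe sets the median difference between treatments was -0.17.

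**Figure D5:**
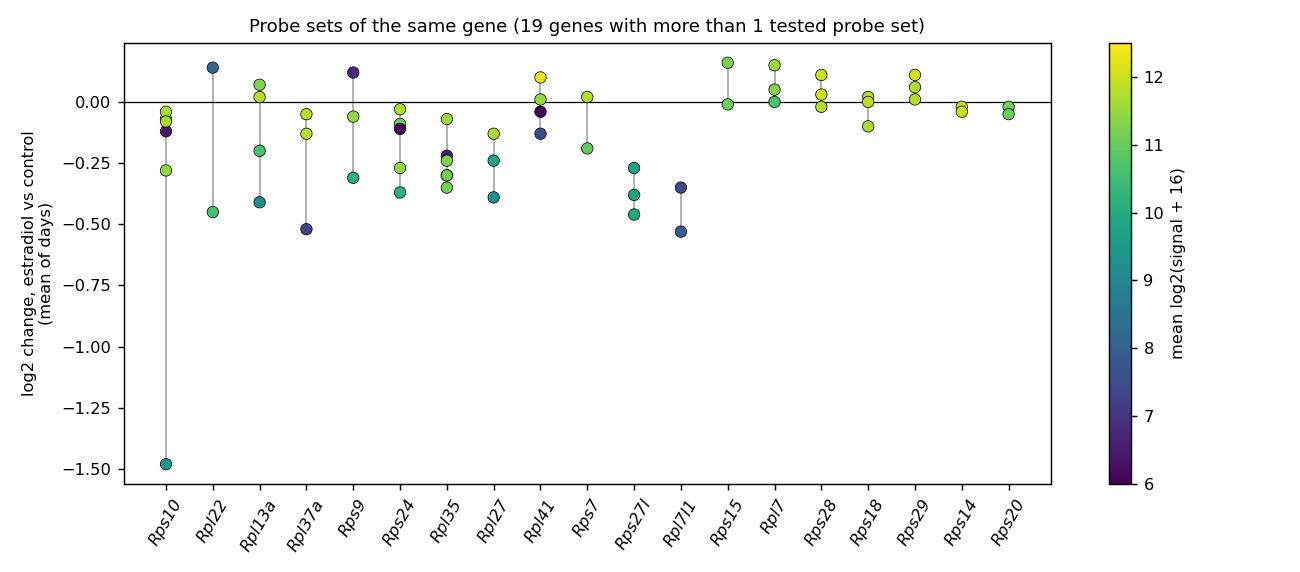
Difference between estradiol and control (log2 units, mean of days) for each probe set of the 19 ribosomal protein genes with more than 1 tested probe set, 1 column per gene, coloured by mean log2 signal. Rps10 spans -1.48 to -0.04, and the 2 probe sets of Rpl22 lie on either side of zero at -0.45 and 0.14.

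Genes that work with the ribosomal proteins were compared from lists chosen by function. Of 46 ribosome assembly factors, 0 were called in any mean comparison. Of all probe sets, 0.604% were called for estradiol and 0.0368% for genistein against the controls, and 1.41% between the treatments. The medians of the assembly factors were -0.03 for estradiol and -0.06 for genistein against the controls and -0.01 between the treatments. At an unadjusted p under 0.05, 2 were higher and 2 lower with estradiol, where 14.8% of all probe sets passed. The extremes were Nop2, a ribosomal RNA methyltransferase (0.55), Ubtf, a factor of RNA polymerase I (0.36), Nop56, of box C/D particles (-0.33), and Polr1d, a subunit of RNA polymerases I and III (-0.50, adjusted p = 0.0934). Of 38 translation factors, 0 were called in these comparisons, for which the shares of all probe sets are given above. With estradiol 5 were lower at an unadjusted p, where 5.79% of all were. The medians were -0.04, 0.02 and -0.12, with 27 of 38 lower with estradiol than with genistein. Eef1e1 (-0.64, adjusted p = 0.0646) and Eif1b (-0.45) were the lowest with estradiol and Eif3b (0.26) and Eef2, which moves the ribosome along the messenger RNA (0.18), the highest. Fau, whose product includes Rps30, gave 0.08 and 0.33 against the controls and -0.25 between the treatments, and the nascent chain factors Naca and Btf3 gave -0.13 and -0.11 between the treatments.

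Markers of the cell types of the thymus moved with the treatments as well. No marker gene was at 0 on any array. With estradiol, 4 of 14 macrophage markers, 4 of 11 epithelial markers and 3 of 6 adipocyte markers were called higher than in the controls, where 0.604% of all probe sets were called in either direction, and 0 of 10 markers of double-positive thymocytes and 0 of 12 of dividing cells were called. The summed signal of the macrophage markers was 4970 to 5196 on the controls, 6168 to 6604 on the estradiol arrays and 4785 to 6070 on the genistein arrays, and that of the epithelial markers 6364 to 6815, 8241 to 9913 and 7232 to 8082. The markers of dividing cells summed to 10701 to 11929, 9293 to 10301 and 10136 to 11752, and the double-positive thymocyte markers to 12715 to 13172, 11826 to 14001 and 12833 to 14892. The adipocyte markers, 7 on the array and 6 of them tested, summed to 1336 to 1424, 2025 to 3385 and 1076 to 2019. The fibroblast markers, 8 on the array and 6 of them tested, summed to 1189 to 1393, 1649 to 2014 and 1097 to 1450. The B and plasma cell markers, 8 on the array with 0 of the 7 tested called, summed to 4069 to 4241, 4140 to 4934 and 3839 to 5187. The 3 red cell genes on the array, 1 of them tested, summed to 183.7 to 200.8, 120.5 to 231 and 121.6 to 225.5. By these sums, in which bright genes weigh most, the estradiol arrays lay above the controls and the genistein arrays for macrophage, epithelial, adipocyte and fibroblast markers. They lay below the controls for dividing cells. No fibroblast marker was called with estradiol against the controls (lowest adjusted p = 0.0668 in limma, for Col1a1). Of the macrophage markers, Adgre1 (-0.03), Lyz2 (-0.09) and Ctss (-0.28) were lower with estradiol than in the controls, and the others were higher. The part of these shifts in the ribosomal protein values was not tested.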

How the data were processed

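RNA of 14 thymus pools was hybridised to Affymetrix arrays. The deposited values are MAS5 5.0 signals, an intensity per probe set on a linear scale, per the submitters' processing notes, and per the labels each array is a pool of 3 mice. Arrays differ in no read depth, and precision is limited by their number, 2 per group.

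From the deposited intensity values, the 64 control probe sets were left out of the tests, every array was multiplied to a 2%-trimmed mean of 150.04, log2(signal + 16) was taken, and the 40% of probe sets with the lowest means were left out, so that the lowest tested mean was 5.92. limma 3.58.1 in R 4.3.3 was fitted with a mean for each of the 7 groups (7 residual degrees of freedom, 13.74 after moderation), with eBayes and an intensity trend. Contrasts were tested two-sided, p-values were adjusted by Benjamini-Hochberg over all 13575 tested probe sets, and a call is an adjusted p under 0.05. Each gene is shown by the brightest of its tested probe sets. Gene symbols came from the platform annotation, with 20393 probe sets of 1 symbol, 691 of several and 1606 of none, and none was taken from a probe set with several. The fit was tested on simulated data. Figures and promoter counts used python 3.11.15 and matplotlib 3.10.9.

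The members and lists were chosen with earlier results of these data known. Named are, per comparison, the called genes and the 3 largest values in each direction where fewer than 3 were called, the 5 brightest and 5 dimmest genes, the 5 with the most discordant probe sets, 25 genes of known role, and up to 4 genes per pathway list. Alternatives were the pseudocount, filter, normalization, variance trend, replicate block, array scale, Gapdh ratio, probe set type, samples fitted and leaving out each array. The check of replicate numbers is given with the alternatives.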

Additional observations from a re-analysis of the deposited data

Results flagged for a closer look

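2 genes stood out because their values differed between estradiol and genistein by a test of the difference itself. Injection in corn oil came with estradiol only and cannot be told apart from it. Rps6 was lower with estradiol than with genistein by -0.48 log2 units over the mean of days (limma, adjusted p = 0.0394), with 0.14 for estradiol and 0.63 for genistein against the controls they share. Rpl7a was lower with estradiol than with genistein by -0.3 (limma, adjusted p = 0.0446), with -0.08 and 0.22 against the controls. Rps6 has 1 tested probe set, and its second probe set read between 12.3 and 35, below the filter.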

How the results depend on the processing

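Between estradiol and genistein, 2 member probe sets were called. The count was 0 with no filter, with centring on medians, without the intensity trend, without the 3 arrays of the other scale, with a model term for those 3 arrays and with the Gapdh ratio as a covariate, and 1 with quantile normalization, with the replicate block and with only the groups compared. Leaving out single arrays gave 0 to 17 calls, with 17 without estradiol day 2 replicate 1. Against the controls, leaving out single arrays gave 0 to 2 calls for estradiol and 0 to 1 for estradiol day 2 and for genistein, each highest without control replicate 1. Rps6 kept its direction in 29 of 29 alternatives and its call in 12 (adjusted p from 0.0256 to 0.69), and Rpl7a in 28 of 29 and 9 (0.0157 to 0.456). The median difference between treatments was -0.19, and -0.11 without the 3 arrays, -0.09 with their scale as a term, -0.23 to -0.15 without single arrays and -0.03 with quantile normalization.

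Values as deposited, in which 3 estradiol arrays keep their higher scale, gave a median of 0.26 for the members and 0.42 for all probe sets between the treatments. They gave 64 calls between the treatments, 84 on day 3, 51 for estradiol against the controls, 2 and 84 on days 2 and 3, 84 over the estradiol days and 77 for treatment by day. The share of all probe sets called in this setting is not given here, so these counts cannot set the members apart. Named values whose sign turned there follow; values that passed no threshold and medians also turned under other settings, such as Rplp2 (0.08) and Rpl41 (0.05) between the treatments with quantile normalization. For estradiol against the controls on day 3 they were Rps27l 0.56, Rpl7l1 0.59 and Rpl22 0.72, and over the mean of days Rplp0 0.43, Rpsa 0.44, Rps4x 0.45, Rpl11 0.42 and Rps3 0.37. Between the treatments on day 3 they were Rps6 0.49 and Rps19 0.65. Over the mean of days between the treatments they were Rpl7a 0.15, Rpl14 0.36, Rplp0 0.23, Rplp2 0.3, Rps27l 0.28, Rpl22 0.37, Rpl22l1 0.38, Rpl7 0.44, Rpl7l1 0.41, Rps4x 0.22, Rpl11 0.25, Rps19 0.34 and Rps3 0.21. For the other lost calls the cause was not tested.

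Replicate numbers did not pair the samples: over 21 pairs of groups, deviations of same-numbered arrays correlated between -0.256 and 0.351, with 5 over 0.1. With the replicate block the adjusted p of Rps6 was 0.0549 and that of Rpl7a 0.0499. With 2 pools per group and 1 control group at day 0, small changes of single genes could not be resolved, and signals below the filter carry mostly background.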

Other observations

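Mitochondrial ribosomal proteins, which serve the ribosomes inside mitochondria and are no part of the set described above, were read after the other values were seen. Over 74 such genes the median against the controls was -0.20 with estradiol, with 62 lower, and -0.09 with genistein, and the difference between the treatments was -0.12. On estradiol day 6 the median was -0.27. None was called in limma, and at an unadjusted p under 0.05 with estradiol 20 were lower and 1 higher, where 5.79% of all tested probe sets were lower and 0.604% were called.

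Eef1a1 and Tpt1, both with a terminal oligopyrimidine motif by textbook knowledge and both very bright, were also picked after their values were seen. Between the treatments both gave -0.29 (limma, adjusted p = 0.0642), with 0.09 and 0.38 for Eef1a1 and 0.08 and 0.37 for Tpt1 against the shared controls under estradiol and genistein.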
